A study of Homo sapiens with 4 samples.

Results

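The nuclear pore and nuclear transport genes described here are 59 genes of A549, an established human lung adenocarcinoma cell line, out of 12742 genes measured in RNA-sequencing libraries. They were chosen by name, as the nucleoporins, importins, exportins, transportins and Ran-cycle genes among 42113 gene rows, which gave 61 rows, and selected on a mean of at least 30 normalized counts over the 4 libraries, which 59 passed. The cells had been stably infected with lentivirus carrying either a negative control short hairpin RNA (shRNA) or one against LIMA1, which encodes the actin-binding protein EPLIN, and RNA of each line was taken without treatment and 24 h after nutlin-3a was added at 10 µM. Nutlin-3a keeps the ubiquitin ligase MDM2 from binding p53, and the study asked how knockdown of LIMA1 alters gene activation by p53. The 4 groups were thus untreated control shRNA cells, untreated LIMA1 shRNA cells, nutlin-3a-treated control shRNA cells and nutlin-3a-treated LIMA1 shRNA cells, with 1 library each; all carried an integrated lentivirus, and the labels do not say whether a line was 1 clone or a pool.

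Nuclear pore complexes are large channels through the nuclear envelope. Stacked rings of scaffold nucleoporins are held in the membrane by transmembrane nucleoporins, and unfolded phenylalanine-glycine repeats of other nucleoporins fill the channel and decide what may cross. Cargo is carried by importins and exportins, whose loading and release are set by the small GTPase Ran, kept in its GTP form in the nucleus by RCC1 and in its GDP form in the cytoplasm by RANGAP1. Pores are taken apart and rebuilt around mitosis in human cells, and importins and Ran also act in spindle assembly.

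Libraries held 15.2 to 16.7 M fragments. LIMA1 was at 416 and 866 normalized counts in the untreated and nutlin-3a-treated control shRNA libraries and at 68.3 and 133 in the corresponding LIMA1 shRNA libraries, so it was lower where the labels name its shRNA. The p53 targets CDKN1A and MDM2 were at 1066 to 1857 normalized counts untreated and at 27580 or more with nutlin-3a. The epithelial keratin genes KRT8, KRT18 and KRT7 and the A549-typical genes ALDH1A1, AKR1B10 and NQO1 were at 20084 or more normalized counts in every library, E-cadherin (CDH1) was at 2464 or more, and CDKN2A, which A549 has lost, was at 0 in all 4. Markers of leukocytes, endothelium and fibroblasts (PTPRC, PECAM1, COL1A2 and DCN) were at 4.71 normalized counts or less. With no replicates there was no test: a difference compares libraries, is given on the log2(normalized count + 1) scale, and is called lower or higher at a size of at least 1, which is 2-fold. Ranges in parentheses are 95% Clopper-Pearson intervals (exact) from the fragments counted in both libraries, and they cover counting error only. In these bulk libraries, fewer cells of a kind and less RNA per cell cannot be told apart.

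With nutlin-3a, most pore and transport genes stood at lower levels in both cell lines. In control shRNA cells 12 of 59 members were lower by at least 1, against 5.64% of all measured genes, and 0 were higher, against 5.54%. In LIMA1 shRNA cells 12 members were again lower, against 6.08% of all genes, and 0 were higher, against 7.29%. The median member difference was -0.64 in each line, where the median of all measured genes was -0.02. In control shRNA cells 55 members (93.2%) lay below 0, against 51.5% of all measured genes, and 34 members (57.6%) were lower by at least 0.5, against 16.0%. Of the called genes 11 were shared by the lines: KPNA2, RANBP1, NDC1, NUP85, NUP107, NUP205, NUP155, RCC1, NUP93, NUP210 and NUP188. Over all measured genes 719 were lower by at least 1 in control and 775 in LIMA1 shRNA cells. How many of those were shared was not computed, so the overlap cannot be called particular to the members. XPO1 was called in control shRNA cells alone, with -0.995 in the other line, and XPOT in LIMA1 shRNA cells alone, with -0.82 in the other line. These comparisons were not used by the rule, which took names and the mean level only, but the gene set was put together with earlier results of these libraries known, so the counts describe it and test nothing.

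**Figure D1:**
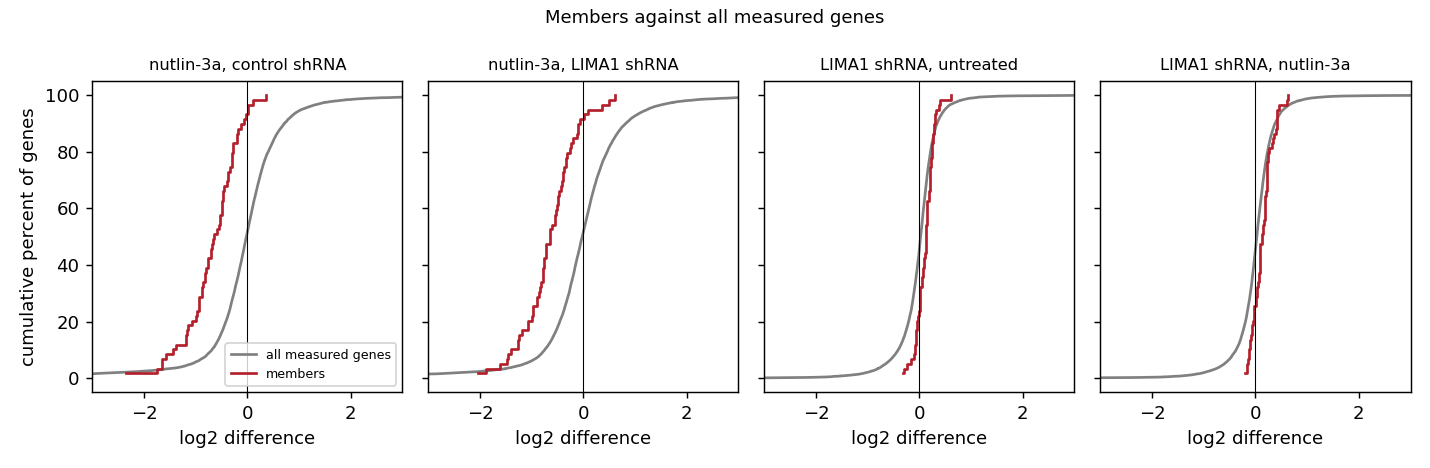
Cumulative percent of genes (y axis) against the log2 difference (x axis, cut at -3 and 3) for the 59 members and for all 12742 measured genes, in 4 comparisons of 2 libraries each. In both nutlin-3a panels the members' curve lies left of that of all genes over most of its height, with medians of -0.64 against -0.02. The lower tail is the exception, since the lowest member, KPNA2, is at -2.34 and -2.04 while all genes reach beyond -3. In the panels of LIMA1 shRNA against control shRNA the members' curve lies to the right around 0, with medians of 0.13 against 0.02 and 0.03.

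The differences were spread unevenly over the parts of the pore. All 27 measured pore components were below 0 in both lines, except that POM121 lay just above 0 in LIMA1 shRNA cells after upper-quartile scaling, with medians of -0.76 in control and -0.77 in LIMA1 shRNA cells; 8 of the 27 were called in each line. The 30 measured transport factors had medians of -0.49 and -0.50, with 4 called in each line. Over all measured genes 5.64% were lower by at least 1 in control and 6.08% in LIMA1 shRNA cells. These shares apply to each count of calls by role below, and in small groups a count of 0 or 1 says little beside them.

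**Figure D2:**
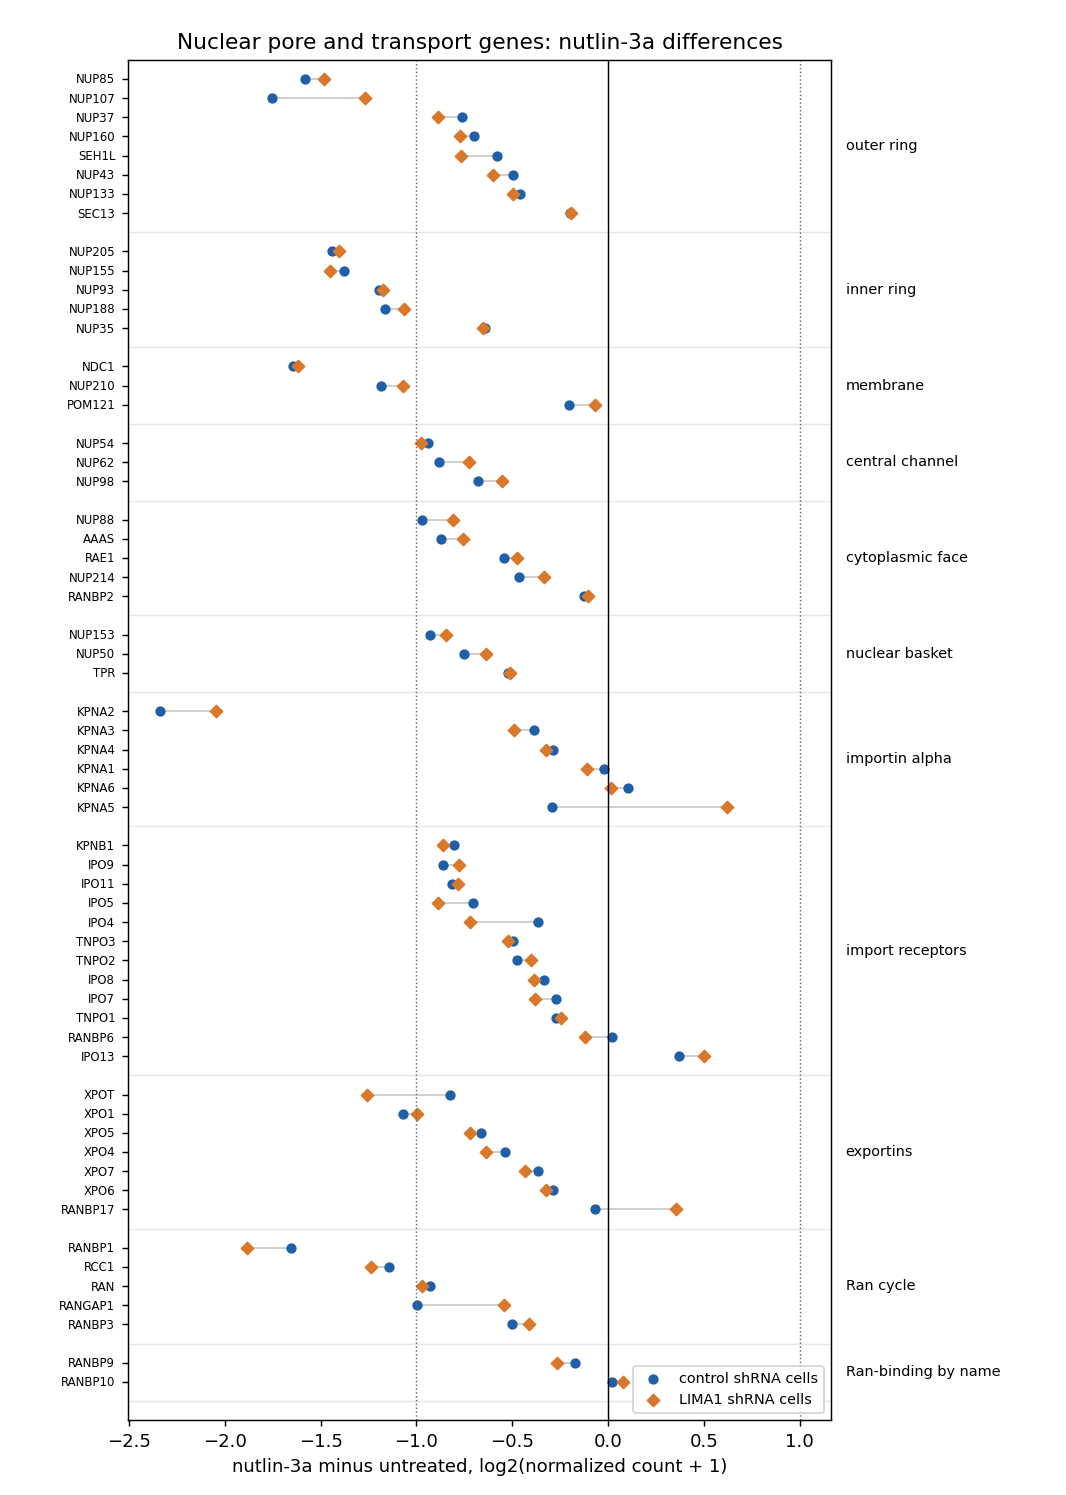
Nutlin-3a minus untreated difference on the log2(normalized count + 1) scale (x axis) for each of the 59 members (y axis), grouped by role; circles are control shRNA cells, diamonds LIMA1 shRNA cells, and dotted lines mark a size of 1. KPNA2 lies farthest left, at -2.34 and -2.04, and 4 of the 5 inner ring genes lie beyond -1 in both lines.

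The inner ring, the scaffold that lines the channel and anchors the central repeats, had a median of -1.19 in control and -1.18 in LIMA1 shRNA cells, close to the -1.19 and -1.07 of the 3 membrane nucleoporins. Of its 5 genes 4 were called in each line, against 5.64% of all measured genes in control and 6.08% in LIMA1 shRNA cells. After upper-quartile scaling NUP188 was no longer called in LIMA1 shRNA cells. NUP205, one of its large scaffold proteins, was at 2705 and 3540 normalized counts in untreated control and LIMA1 shRNA cells and at 998 and 1337 with nutlin-3a, differences of -1.44 (-1.54 to -1.34) and -1.40 (-1.50 to -1.31). Its paralog NUP188 was at 1731 and 1918 untreated and 771 and 915 with nutlin-3a, differences of -1.16 and -1.07. NUP155, which contacts the membrane, went from 1179 and 1414 untreated to 454 and 516. NUP93, the linker that holds the ring together, was at 1411 and 1635 untreated and 616 and 723 with nutlin-3a. For these 4 genes both treated libraries lay below both untreated ones, and the level with nutlin-3a was 36.5% to 47.7% of that without. NUP35, the smallest subunit, differed less, by -0.64 and -0.65, from 541 and 484 untreated to 346 and 308 normalized counts.

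The outer ring, or Y complex, which coats the pore on both faces of the envelope, was split. NUP107, a stem subunit, was at 2028 and 2239 normalized counts untreated and at 602 and 929 with nutlin-3a. The difference was -1.75 (-1.89 to -1.62) in control and -1.27 (-1.38 to -1.16) in LIMA1 shRNA cells, so the treated level was 29.7% of the untreated one in the first line and 41.5% in the second. NUP85, in an arm of the Y, was at 1163 and 1274 untreated and 388 and 455 with nutlin-3a, differences of -1.58 and -1.48. The other 6 subunits stayed under the size for a call in both lines. NUP37 was at -0.76 and -0.89, NUP160 at -0.70 and -0.77, SEH1L at -0.58 and -0.77, NUP43 at -0.49 and -0.60 and NUP133 at -0.46 and -0.50. SEC13, which also coats vesicles leaving the endoplasmic reticulum, differed least, at 3195 and 3048 normalized counts untreated and 2788 and 2665 with nutlin-3a (-0.20 and -0.19). Genes for subunits of a single assembly thus ranged from a treated level of 29.7% of the untreated one to 87.3% in control shRNA cells.

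Among the membrane nucleoporins, NDC1, which anchors the inner ring and is also needed to insert pores into the envelope, was at 2051 and 2558 normalized counts untreated and 656 and 832 with nutlin-3a, differences of -1.64 (-1.77 to -1.52) and -1.62 (-1.74 to -1.50). NUP210, whose large domain lies in the lumen of the envelope, was at 3808 and 4685 untreated and 1674 and 2230 with nutlin-3a (-1.19 and -1.07). Both were called in both lines, but NUP210 not in LIMA1 shRNA cells after upper-quartile scaling, and their treated libraries lay below the untreated ones. POM121 was at 970 and 905 untreated and 843 and 864 with nutlin-3a, differences of -0.20 and -0.07. Its value is uncertain: it was not a whole number of fragments in at least 1 library, and the near-identical gene POM121C stood beside it at 838 and 828 untreated and 934 and 984 with nutlin-3a. NUP210L, a relative of NUP210, had 0 fragments in all 4 libraries, which allows up to 3 fragments each, or 2.83 to 3.22 normalized counts.

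No gene of the central channel, the cytoplasmic face or the nuclear basket was called in either line. In the channel, NUP54 was at 592 and 583 normalized counts untreated and 308 and 296 with nutlin-3a (-0.94 and -0.98), and NUP62, its partner with repeats, was at -0.88 and -0.72. NUP98, whose transcript also encodes the Y-complex subunit NUP96, was at -0.68 and -0.55. On the cytoplasmic face, NUP88 was at -0.97 and -0.81 and AAAS, which encodes aladin, at -0.87 and -0.76. RAE1, an mRNA export factor, was at -0.54 and -0.47, and NUP214, which binds exportin 1, at -0.46 and -0.33. RANBP2, the giant SUMO ligase of the cytoplasmic filaments, differed least, at 2156 and 2441 normalized counts untreated and 1977 and 2274 with nutlin-3a (-0.12 and -0.10); the RGPD genes, near copies of it, were at 4.71 normalized counts or less. In the basket, NUP153 was at -0.93 and -0.84, NUP50 at -0.75 and -0.64, and TPR, the filament protein of the basket, at -0.52 and -0.51. NUP50 has an antisense model, NUP50-AS1, at up to 33.5 normalized counts, and whether counting used strand is not known.

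Importin alpha proteins read the classical nuclear localization signal and hand the cargo to importin beta. Of the 6 measured importin alpha genes KPNA2 alone was called, and it had the largest nutlin-3a difference of the 59 members in each line. It stood at 8568 and 8147 normalized counts in untreated control and LIMA1 shRNA cells and at 1692 and 1974 with nutlin-3a. The difference was -2.34 (-2.42 to -2.27) in control and -2.04 (-2.12 to -1.97) in LIMA1 shRNA cells, which left 19.8% and 24.2% of the untreated level. The other 5 stayed under the size for a call. KPNA3 was at -0.39 and -0.49, KPNA4 at -0.29 and -0.32, KPNA1 at -0.02 and -0.11 and KPNA6 at 0.10 and 0.01. KPNA5 had the lowest mean of the members kept, with 53.7 and 43.5 normalized counts untreated and 43.7 and 67.5 with nutlin-3a, and KPNA7, at 11.3 and 16.8 untreated and 11.9 and 7.5 with nutlin-3a, was the row just outside the mean of 30.

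Per kb of transcript, KPNA2 was the most abundant importin alpha gene in each library. It made up 76.6% of the summed level per kb of the 7 importin alpha genes in untreated control and 73.1% in untreated LIMA1 shRNA cells, and 41.8% and 43.6% with nutlin-3a. The sum itself was 4554 and 4535 normalized counts per kb untreated and 1650 and 1844 with nutlin-3a. KPNA1 had 6.46% of the sum in untreated and 17.6% in treated control shRNA cells, although its own level per kb was 294 and 290. Not divided by length, KPNA1 (1979) and KPNA4 (1948) lay above KPNA2 (1692) in treated control shRNA cells. In treated LIMA1 shRNA cells KPNA1 (2246) lay above KPNA2 (1974). The order with nutlin-3a thus rests on the lengths used, 2456 bases for KPNA2, 6830 for KPNA1 and 8981 for KPNA4.

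**Figure D3:**
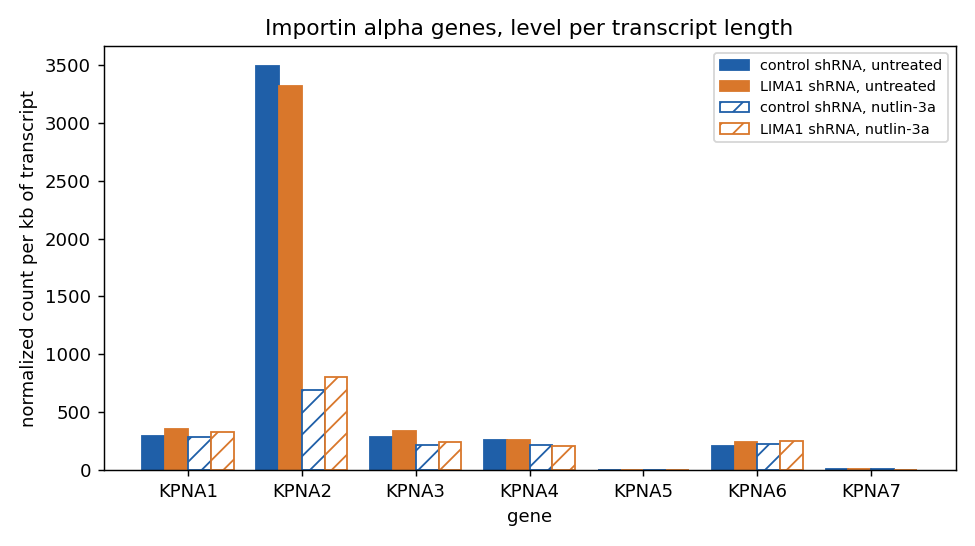
Normalized counts per kb of transcript (y axis, from 0) for the 7 importin alpha genes (x axis) in the 4 libraries; filled bars are untreated and hatched bars nutlin-3a. KPNA2 is at 3489 and 689 in control shRNA cells without and with nutlin-3a, while KPNA1, KPNA3, KPNA4 and KPNA6 lie between 211 and 355 in all 4 libraries.

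The 200 bases before the RefSeq start site (build GRCh38.p14) are shown for 3 members that were called in both lines, KPNA2, NDC1 and NUP205, and for KPNA6 and KPNA1, the importin alpha genes with the smallest differences. Capitals mark TTTGAA, the letters of the cell cycle genes homology region (CHR) element, and CCAAT, the letters of the box bound by NF-Y, on either strand, so that TTCAAA and ATTGG are the same letters read on the opposite strand. All 3 called members shown hold TTTGAA, so they are examples and do not stand for the called members. NUP85 and NUP107, with lower mean nutlin-3a differences than NUP205 (-1.53 and -1.51 against -1.42), hold no TTTGAA in their windows.

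KPNA2, chr17:68035535-68035734 on the plus strand: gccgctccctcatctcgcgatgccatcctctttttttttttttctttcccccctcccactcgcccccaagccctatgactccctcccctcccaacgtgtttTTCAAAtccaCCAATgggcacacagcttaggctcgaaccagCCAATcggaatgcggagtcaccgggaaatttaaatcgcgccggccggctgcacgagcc
NDC1, chr1:53838297-53838496 on the minus strand: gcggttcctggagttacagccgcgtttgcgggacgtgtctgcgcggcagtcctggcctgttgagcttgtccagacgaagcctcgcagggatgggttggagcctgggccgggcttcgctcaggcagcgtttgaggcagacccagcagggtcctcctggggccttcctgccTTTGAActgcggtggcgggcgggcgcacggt
NUP205, chr7:135557717-135557916 on the plus strand: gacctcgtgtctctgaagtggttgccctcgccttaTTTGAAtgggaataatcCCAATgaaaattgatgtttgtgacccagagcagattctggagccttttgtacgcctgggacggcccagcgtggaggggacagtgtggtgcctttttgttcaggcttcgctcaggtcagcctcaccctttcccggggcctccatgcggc
KPNA6, chr1:32107856-32108055 on the plus strand: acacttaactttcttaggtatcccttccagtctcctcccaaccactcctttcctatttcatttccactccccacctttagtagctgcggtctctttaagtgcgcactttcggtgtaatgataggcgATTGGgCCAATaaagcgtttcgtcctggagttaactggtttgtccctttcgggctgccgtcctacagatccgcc
KPNA1, chr3:122514940-122515139 on the minus strand: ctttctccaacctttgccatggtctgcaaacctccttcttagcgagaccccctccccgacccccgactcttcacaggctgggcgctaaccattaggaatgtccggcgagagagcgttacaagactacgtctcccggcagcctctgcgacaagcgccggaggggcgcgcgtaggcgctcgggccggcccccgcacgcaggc

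KPNA2 held TTCAAA with its first base at -99 from the start site and CCAAT at -89 and -58, NDC1 held TTTGAA at -31 and no CCAAT, and NUP205 held TTTGAA at -165 and CCAAT at -148. KPNA2 had a further TTTGAA at 33 bases after its start, outside the bases printed. KPNA6 had an ATTGG at -74 next to a CCAAT at -68 and no TTTGAA, and KPNA1 had neither. Windows from 250 bases before to 50 after the start were found for 53 of the 59 members, 68 windows in all since some genes have several starts; KPNA4, KPNA5, KPNB1, NUP43, RANBP1 and XPO7 had none. TTTGAA on either strand was in a window of 13 of these 53 members (24.5%), against 13.8% of the 9157 measured genes with a window and 15.2% of all 35116 windows. CCAAT was in 21 members (39.6%), against 43.6% of measured genes and 34.6% of all windows. The E2F letters TTTCGCGC or TTTGGCGC were in 3 members, IPO11, IPO7 and NUP155 (5.66%, against 2.49% of measured genes and 1.15% of windows), and CGCATGCG, the core of the site bound by NRF1, in 5 (9.43%, against 4.50% and 2.02%). No motif contains another. The 13 members with TTTGAA had a median of -0.82 for the mean of both nutlin-3a differences and the 40 without it -0.51; with and without CCAAT the medians were -0.65 and -0.68. Of the 12 members called in either line that had a window, 4 held TTTGAA (KPNA2, NDC1, NUP205 and NUP93) and 6 held CCAAT. Of the 41 members with a window that were called in neither line, 9 held TTTGAA and 15 held CCAAT. The TTTGAA letters of NUP93 lay at 23 and -24 from separate starts, and a window further upstream held CCAAT without them. Among the called members, RCC1, NUP188, NUP210 and XPOT held none of the 4 motifs. These matches describe letters in a window and were not tested.

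The importin beta family carries cargo directly or through importin alpha, and none of its 12 measured import receptors was called in either line. KPNB1, importin beta itself, was at 10290 and 11322 normalized counts untreated and 5892 and 6222 with nutlin-3a, differences of -0.80 (-0.85 to -0.76) and -0.86 (-0.91 to -0.82). IPO9, a histone importer, was at -0.86 and -0.78, IPO11 at -0.81 and -0.78, and IPO5, an importer of ribosomal proteins and histones, at -0.71 and -0.89. Another 6 lay between -0.52 and 0.02 in both lines, among them RANBP6, an importin despite its name, at 0.02 and -0.12, TNPO1, the transportin of RNA-binding proteins, at -0.27 and -0.24, and TNPO3, an importer of splicing factors, at -0.50 and -0.52. IPO4 stood at 2424 and 2858 untreated and 1882 and 1733 with nutlin-3a, so its difference was -0.37 (-0.45 to -0.28) in control and -0.72 (-0.81 to -0.63) in LIMA1 shRNA cells. IPO13, which carries cargo in both directions, was the exception in direction, with 457 and 385 normalized counts untreated and 592 and 546 with nutlin-3a (0.37, 0.20 to 0.55, and 0.50, 0.31 to 0.70). It was the highest member in control shRNA cells, and both treated libraries lay above both untreated ones.

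Of the 7 measured exportins, 1 was called in each line, against 5.64% of all measured genes in control and 6.08% in LIMA1 shRNA cells. XPO1, the exporter of proteins with a leucine-rich export signal, p53 among them, was at 6893 and 7672 normalized counts untreated and 3279 and 3848 with nutlin-3a. Its differences were -1.07 (-1.13 to -1.01) and -0.995 (-1.05 to -0.94), the second just short of a call. XPOT, the exporter of tRNA, was at 2009 and 3083 untreated and 1135 and 1289 with nutlin-3a, differences of -0.82 (-0.93 to -0.72) in control and -1.26 (-1.36 to -1.16) in LIMA1 shRNA cells. For XPOT the untreated LIMA1 shRNA library was the highest of the 4, and both treated libraries lay below both untreated ones. XPO5, the exporter of microRNA precursors, was at -0.66 and -0.72, XPO4 at -0.54 and -0.64, XPO7 at -0.37 and -0.44 and XPO6, the exporter of actin, at -0.29 and -0.33. RANBP17, an exportin by sequence, was at 122 and 97.0 normalized counts untreated and 116 and 124 with nutlin-3a (-0.07 and 0.36). After IPO13 and KPNA5 it had the highest mean of both differences among the members, followed by KPNA6.

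In the Ran cycle all 5 genes lay below 0 in both lines. RANBP1, which helps RANGAP1 to trigger GTP hydrolysis, was at 1255 and 1339 normalized counts untreated and 397 and 361 with nutlin-3a, differences of -1.66 (-1.82 to -1.50) and -1.89 (-2.07 to -1.72), the lowest after KPNA2 by the mean of both lines. RCC1, the exchange factor on chromatin, was at 1986 and 2091 untreated and 900 and 886 with nutlin-3a (-1.14 and -1.24), but not all of its values were whole numbers of fragments. The same held for NUP62, NUP88, TPR, KPNB1 and IPO9, whose reads may be shared with other gene models. RAN itself was at 7835 and 7942 untreated and 4108 and 4054 with nutlin-3a, differences of -0.93 (-0.99 to -0.88) and -0.97 (-1.03 to -0.91). RANGAP1 was at 1967 and 1979 untreated and 985 and 1358 with nutlin-3a. Its difference was -0.998 (-1.11 to -0.89), just short of a call, in control shRNA cells and -0.54 (-0.65 to -0.44) in LIMA1 shRNA cells. RANBP3, a cofactor of XPO1, was at -0.50 and -0.41. The genes RANBP9 and RANBP10, which share the family name but encode scaffold subunits of a ubiquitin ligase, were at -0.17 and -0.26 and at 0.02 and 0.08.

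**Figure D4:**
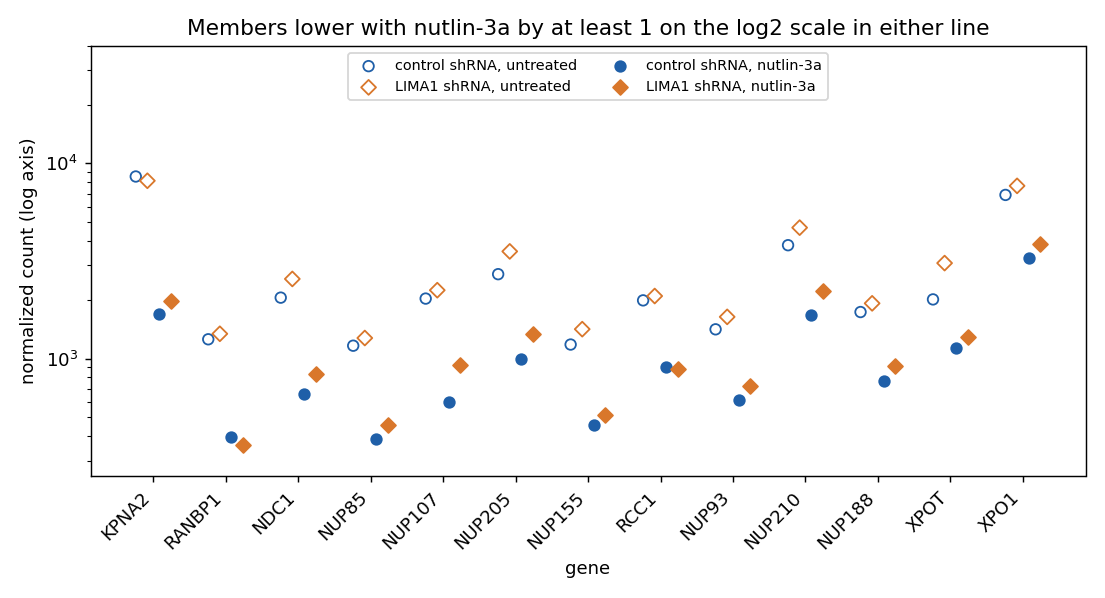
Normalized counts (y axis, log scale, not divided by length) of the 13 members (x axis) that were lower with nutlin-3a by at least 1 in either line; open symbols are untreated, filled ones nutlin-3a, circles control and diamonds LIMA1 shRNA cells, 1 library each. For each of the 13 genes both filled symbols lie below both open ones.

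Across the 59 members, the nutlin-3a differences of both lines, which share no library, had a Spearman's rho of 0.95. Members with a higher level per kb in untreated control shRNA cells had lower mean differences (rho -0.48), and rho with transcript length was 0.23. The level per kb and the difference both contain the untreated control library, the lengths are of 1 transcript per gene, and these values describe the genes without treating them as replicates. In 51 of the 59 members the lines differed in response by 0.2 or less. Neither this count nor rho was computed over all measured genes. Quartiles of the response difference were -0.08 and 0.10 in the members and -0.12 and 0.15 in all measured genes, so small differences were common there too.

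Genes of the pathway that the name rule does not cover had medians of -0.41 in control and -0.45 in LIMA1 shRNA cells, against -0.02 for all measured genes. Of 34 measured genes, 4 were lower by at least 1 in control shRNA cells, against 5.64% of all genes, and 3 in LIMA1 shRNA cells, against 6.08%, the latter near the share in all genes. None was higher, against 5.54% and 7.29%. DDX39A, an RNA helicase of mRNA export, was at 1447 and 1449 normalized counts untreated and 448 and 387 with nutlin-3a (-1.69 and -1.90), while its paralog DDX39B was at -0.43 and -0.53. ALYREF, the export adaptor that works with these helicases, was at -1.27 and -1.29, and NXT1, the small partner of the mRNA export receptor NXF1, at -0.97 and -1.31. CSE1L, the exportin that returns importin alpha to the cytoplasm, was at 5859 and 7326 untreated and 2880 and 4201 with nutlin-3a (-1.02 and -0.80), and THOC3 was at -1.03 and -0.89. At the upper end POM121C was at 0.16 and 0.25, HTATIP2 at 0.15 and 0.08 and GLE1 at 0.01 and -0.02.

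Between the cell lines no member differed by as much as 1. In untreated cells 0 of 59 were higher with LIMA1 shRNA by at least 1, against 1.04% of all genes, and 0 were lower, against 2.05%; with nutlin-3a 0 were higher, against 1.26%, and 0 lower, against 1.94%. The median was 0.13 in each treatment, against 0.02 and 0.03 for all measured genes, and 46 members untreated and 44 (74.6%) with nutlin-3a lay above 0, against 54.4% and 54.6% of all genes. After upper-quartile scaling the member medians were 0.07 untreated and 0.09 with nutlin-3a, and 39 members (66.1%) and 41 members (69.5%) lay above 0, against 44.7% and 48.2% of all genes. In all, 37 members were above 0 in both treatments and 6 below 0 in both, NUP35, NUP37, NUP54, SEC13, IPO8 and IPO13. A lasting difference between the lines and an effect of the LIMA1 shRNA cannot be told apart.

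XPOT had the largest difference between the lines in untreated cells, 0.62 (0.54 to 0.70), and was at 0.18 (0.07 to 0.30) with nutlin-3a. Next untreated were TPR at 0.40, NUP205 at 0.39 and NDC1 at 0.32; these were at 0.41, 0.42 and 0.34 with nutlin-3a. With nutlin-3a NUP107 was highest, at 0.63 (0.48 to 0.78), followed by KPNA5 at 0.62 (0.05 to 1.22), RANGAP1 at 0.46 (0.34 to 0.59) and NUP214 at 0.42. Untreated, these were at 0.14, -0.30, 0.01 and 0.29. On the low side, RANBP17 was at -0.32 (-0.72 to 0.06), KPNA5 at -0.30, IPO13 at -0.25 and NUP35 at -0.16 untreated. With nutlin-3a NUP37 was at -0.21 (-0.40 to -0.02), NUP35 at -0.17, IPO5 at -0.16 and RANBP1 at -0.14. By role, all 5 genes of the cytoplasmic face and all 3 of the basket were above 0 in both treatments, except that untreated RAE1 lay just below 0 after upper-quartile scaling and NUP153 after both other scalings, with medians of 0.20 and 0.33 and of 0.29 and 0.40. Other roles were less uniform. Of the 8 outer ring genes 6 were above 0 untreated and 4 with nutlin-3a, and of the 5 Ran-cycle genes 5 and 2. Of the 3 channel genes 1 and 2 were above 0, and of the 7 exportins 6 and 7.

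**Figure D5:**
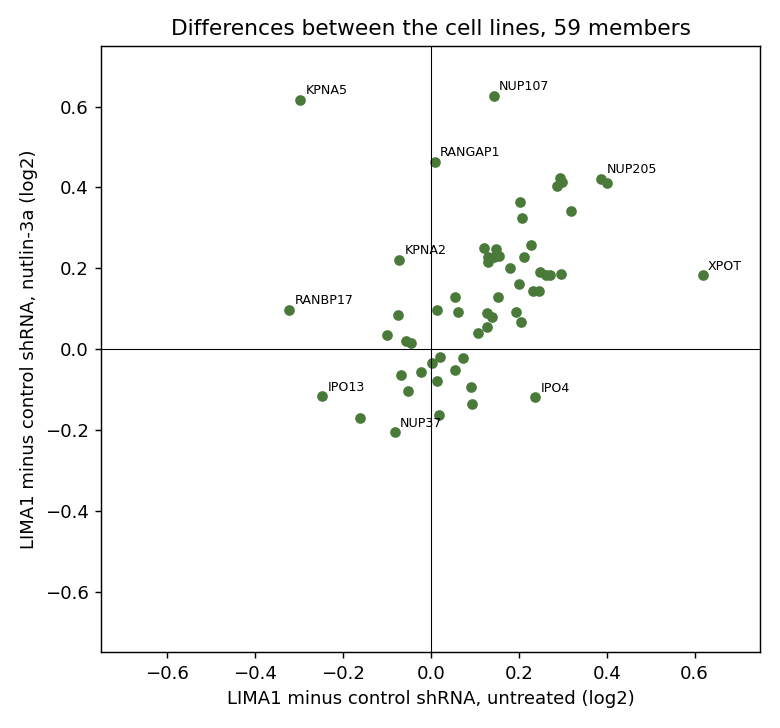
LIMA1 shRNA minus control shRNA difference on the log2(normalized count + 1) scale in untreated cells (x axis) and with nutlin-3a (y axis); each point is 1 of the 59 members. No point reaches 1 on either axis; XPOT is farthest right at 0.62 and NUP107 highest at 0.63.

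The nutlin-3a difference of the LIMA1 shRNA line less that of the control line, which uses all 4 libraries, had a median of 0.01 over the members and over all genes. It reached 1 in 0 members, against 1.27% of all genes higher and 0.816% lower. The highest values were at KPNA5 (0.91), NUP107 (0.48), RANGAP1 (0.45) and RANBP17 (0.42), and the lowest at XPOT (-0.43), IPO4 (-0.36), RANBP1 (-0.23) and SEH1L (-0.19). KPNA5 had 67.5 normalized counts or fewer in each library.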

How the data were processed

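RNA of 4 A549 libraries was sequenced, 1 per group; groups come from the titles, where si stands for what the protocols call shRNA. Per the submitters' processing notes, Cuffnorm 2.2.1, Bowtie2 2.0.12, bcl2fastq 1.8.3 and genome build hg19 were used, in roles those notes do not give. Annotation, filters and strand setting: not given in the sources used here. Each deposited file holds a signal per gene, which from its low values amounts to fragments divided by 1 size factor per library and not by length. One fragment is worth 0.943 to 1.07, and 85.5% to 86.3% of values between 0.5 and 1000 fragments were whole to within 0.1. Whole reads would need 95%, so no count test was run. Of the 59 members, 7 were not whole in 1 or more libraries (IPO9, KPNB1, NUP62, NUP88, POM121, RCC1 and TPR); their counting intervals use rounded estimates.

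Differences between log2(value + 1) were taken for genes with a mean of at least 30; for low genes this scale gives too small a fold. The members, gene lists and motifs were chosen with earlier results of these data known. Genes named by rule are the members with the largest and smallest absolute mean nutlin-3a difference per role, the 6 lowest and 4 highest by that mean, the 4 highest and 4 lowest of each LIMA1 shRNA comparison and of the response difference, every called member, RAN, KPNB1, XPO1, KPNA2, the members beside the mean of 30, and, outside the name rule, called pathway genes and the 3 highest and lowest. Other members are named to complete their group, after their values were seen. Levels per kb divide by the longest principal transcript in GENCODE 29, or the longest coding one where none is marked; that release is on GRCh38, not the build of the files, and gives no coordinates here. Promoter windows are RefSeq's, on GRCh38.p14. The calling step was run on simulated data that held counting error only. That run checks the computation and cannot show how calls would hold between cultures. Alternatives were pseudocounts of 0.5 and 30, no filter and a mean of at least 150, upper-quartile and median-of-ratios scaling, a size of 0.5, and leaving out genes whose values are not whole. Python 3.11.15, numpy 2.4.6, pandas 2.3.3, scipy 1.17.1 and matplotlib 3.10.9 were used.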

Additional observations from a re-analysis of the deposited data

Results flagged for a closer look

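IPO4 and KPNA2 differed between the lines in opposite directions in the 2 treatments, with every counting interval on 1 side of 0. IPO4 was higher in LIMA1 shRNA cells by 0.24 untreated and at -0.12 with nutlin-3a. KPNA2 was at -0.073 untreated and higher by 0.22 with nutlin-3a. Quartiles of all measured genes were -0.15 and 0.17 untreated and -0.14 and 0.19 with nutlin-3a. The negative value of each gene lay between them and the positive one above. The change between treatments was not tested for either gene, since each group has 1 library.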

How the results depend on the processing

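The 12 members called lower in control shRNA cells were the same 12 under both other pseudocounts, both scalings and both other filters, and 11 without genes whose values are not whole, which drops RCC1. Over all genes the count in control shRNA cells was 726 and 575 of 12742 with pseudocounts of 0.5 and 30. It was 662 with upper-quartile and 686 with median-of-ratios scaling. With no filter it was 1802 of 24901, and at a mean of at least 150 it was 518 of 10005. Without values that are not whole it was 571 of 10456. For LIMA1 shRNA cells these counts were not taken. In LIMA1 shRNA cells upper-quartile scaling left 10, without NUP188 and NUP210, and no filter added KPNA7, giving 13. A size of 0.5 gave 34 lower members (57.6%) in control and 36 (61.0%) in LIMA1 shRNA cells, against 16.0% and 17.9% of all genes. At that size 2 members were higher in LIMA1 shRNA cells with nutlin-3a than without, against 2347 of all 12742 measured genes. With LIMA1 shRNA 1 member was higher untreated and 2 with nutlin-3a, against 632 and 740 of all genes. The response difference was 0.5 or more in 1 member, against 659 of all genes. That member was KPNA5, whose nutlin-3a difference was -0.29 in control and 0.62 in LIMA1 shRNA cells. Without a filter 1 member, KPNA7, was lower by at least 1 in the response difference, and this count was not taken over all genes. KPNA7 had 12 and 17 fragments in untreated control and LIMA1 shRNA cells and 12 and 7 with nutlin-3a. The interval of its nutlin-3a difference in LIMA1 shRNA cells was -2.68 to 0.18. Member medians ranged from -0.66 to -0.56 for nutlin-3a in control shRNA cells, -0.65 to -0.56 in LIMA1 shRNA cells, 0.07 to 0.13 between lines untreated, 0.09 to 0.14 with nutlin-3a, and -0.0035 to 0.027 for the response difference, the only one of the 5 to change sign. Of the medians by role, 383 stayed within the spread of their own genes and 2 did not. Those 2 were untreated differences between lines after upper-quartile scaling. They were -0.078 for the central channel and -0.072 for RANBP9 and RANBP10, from -0.02 for both. For larger roles the spread was an interval of the median, and for smaller ones the full range of their genes. Dropping genes cannot take a median out of that range, so part of the 383 was fixed in advance. Upper-quartile scaling shifts all differences of a comparison alike. Counting error limits KPNA5, KPNA7 and RANBP17, and no value here covers variation between cultures. No paired analysis was possible because each group has 1 library.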
